A study of Mus musculus with 502 samples.

Results

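The genes described here are 10 genes known from group 2 innate lymphoid cells: Gata3, Rora, Il7r, Il1rl1, Nmur1, Stab2, Icos, Areg, Il5 and Il13. They were taken by name, as 10 of the 46603 gene rows of a table of read counts in 502 single cells, and were followed across preservation times and library pools together with Cd3e, a chain of the T cell receptor complex. The cells were singlet, propidium iodide negative, Cd45+ cells sorted from kidneys of CD1 wild type mice, an outbred stock, about 3 weeks old. Kidneys were not perfused, so blood leukocytes could be among the sorted cells. They were dissociated fresh (75 and 81 cells in 2 library pools) or kept whole at 4 °C in HTS-FRS, an organ preservative, for 6 h (76 cells), 1 day (75), 2 days (78), 3 days (82) or 4 days (35) and then dissociated in the same way. Both kidneys of a mouse were used up to day 2 and portions of kidneys for days 3 and 4. No label names an animal, so each preservation time counts as 1 sample.

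Group 2 innate lymphoid cells are tissue lymphocytes without a rearranged antigen receptor. The transcription factors Gata3 and Rora are needed for their development, and epithelial alarm signals such as IL-33, read through the receptor encoded by Il1rl1, make them release type 2 cytokines. Neuropeptides also act on them: neuromedin U signals through Nmur1. Many of these genes are shared with T cells, above all with type 2 helper and regulatory T cells, which is why Cd3e was read in the same cells.

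A number in the cell labels was read as the library pool, and 3 such pools are told apart. All cells of 6 h and of day 2 were in pool A, those of day 1 and of day 3 in pool B. Fresh cells were in pools A (75) and B (81), and day 4 was spread over A (2 cells), B (19) and C (14). Cells had 1759 to 1895431 counts on genes, with a median of 695188. Dual indexes were used again between pools, and 362 cells carried an index pair of another pool. Among the gated cells defined further on these were 19, and the cell with the same pair in the other pool was gated for 2 of them and had a Stab2 read for 1. No pair of cells had identical counts.

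Promoters are shown for Stab2 and Nmur1, which were read in nearly the same cells, and for Il1rl1, the receptor gene with the most motif matches. The promoter is the stretch from 250 bases before to 50 bases after the RefSeq start, on GRCm38.p6. Capitals mark AGATAA or TGATAA, the letters bound by GATA factors, and AGGTCA, the core letters bound by ROR factors, each on either strand. The 3 motifs do not overlap in these stretches. Nmur1 and Il1rl1 have 2 promoters each in RefSeq, and 1 of each is shown; the other one of Nmur1 holds none of the motifs.
Stab2, chr10:87007893-87008192, minus strand: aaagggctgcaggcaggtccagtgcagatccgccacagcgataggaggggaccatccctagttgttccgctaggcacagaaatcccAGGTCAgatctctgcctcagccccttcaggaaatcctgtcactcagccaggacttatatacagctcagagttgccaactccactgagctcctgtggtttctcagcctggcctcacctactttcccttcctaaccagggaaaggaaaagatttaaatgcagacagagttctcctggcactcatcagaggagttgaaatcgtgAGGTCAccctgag
Nmur1, chr1:86388092-86388391, minus strand: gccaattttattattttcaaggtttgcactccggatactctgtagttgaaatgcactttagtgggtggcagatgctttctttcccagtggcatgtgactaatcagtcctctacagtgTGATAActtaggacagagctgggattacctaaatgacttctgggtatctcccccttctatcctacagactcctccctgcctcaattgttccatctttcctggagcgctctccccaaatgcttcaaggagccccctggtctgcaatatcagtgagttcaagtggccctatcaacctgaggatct
Il1rl1, chr1:40429320-40429619, plus strand: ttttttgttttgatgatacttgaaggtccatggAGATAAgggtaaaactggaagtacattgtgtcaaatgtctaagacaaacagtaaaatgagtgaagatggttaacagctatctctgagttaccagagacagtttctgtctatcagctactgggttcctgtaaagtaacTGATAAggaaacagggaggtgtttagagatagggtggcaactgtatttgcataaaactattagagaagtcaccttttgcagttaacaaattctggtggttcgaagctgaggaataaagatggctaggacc
RefSeq held 11 promoters for 9 of the 10 genes, and Icos was not matched. AGATAA or TGATAA stood in 4 of the 11, from Il1rl1 (both of its promoters), Nmur1 and Il13, beside 18.6% of the 32851 promoters in the whole table. AGGTCA stood in 2 of the 11, in Stab2 at 2 places and in the second Il1rl1 promoter, beside 16.3% of all promoters. These matches are letters in a window and not sites of binding.

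On GRCm38, the genes lay at chr2:9857078-9890034 (Gata3, minus strand), chr9:68653786-69388246 (Rora, plus), chr15:9505788-9530176 (Il7r, minus), chr1:40429570-40465415 (Il1rl1, plus), chr1:86386303-86426228 (Nmur1, minus), chr10:86841198-87008025 (Stab2, minus), chr1:60977927-61000320 (Icos, plus), chr5:91139599-91148432 (Areg, plus), chr11:53720794-53725106 (Il5, plus) and chr11:53631324-53634702 (Il13, minus). Counts are sums over the exons of a gene, so they do not tell which exons were read.

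Of the 10 genes, 7 were read at every preservation time. Il7r, the receptor for the survival cytokine IL-7, was read in the most cells, 94 of 502, and Gata3 followed with 84. Icos, a costimulatory receptor, was read in 63 cells, Rora in 51, Il1rl1 in 41, Stab2 in 32 and Nmur1 in 25. Stab2 encodes stabilin-2, a scavenger receptor best known from the lining of liver sinusoids. The effector genes were rare: Areg, an epidermal growth factor receptor ligand of tissue repair, was read in 8 cells, Il5, the eosinophil growth factor, in 6, and Il13, a cytokine that drives mucus and smooth muscle responses, in 1.

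By time, Gata3 was read in 32 fresh cells, 13 after 6 h, 10 on day 1, 12 on day 2, 12 on day 3 and 5 on day 4, or 13.3% to 20.5% of the cells. Its fresh cells came almost all from pool B, with 30 there and 2 in pool A, and those of Il7r likewise, with 33 and 3. Stab2 was read in 5 fresh cells (3.21%), all from pool B, and in 2 cells after 6 h (2.63%), 11 on day 1 (14.7%), 5 on day 2 (6.41%), 5 on day 3 (6.10%) and 4 on day 4 (11.4%). Il1rl1 was read in 6 cells fresh and after 6 h, 10 on day 1, 6 on day 2, 12 on day 3 and 1 on day 4.

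The genes did not fall in the same cells. For the most widely read of them, most cells had a Cd3e read. Of the 84 Gata3 cells 46 had a Cd3e read, of the 94 Il7r cells 56, and of the 63 Icos cells 32. Rora was read in 17 cells with Cd3e among its 51. In contrast, Cd3e was read in 3 of the 32 Stab2 cells, in 1 of the 25 Nmur1 cells and in none of the 8 Areg and 6 Il5 cells. Il1rl1 had a further set of cells: 14 of its 41 cells held reads of C1qa and C1qb, complement genes of kidney macrophages, at a median of 18.95 reads per 1000000 gene counts of the cell (rpm) where read. Only 9 of these 14 had at least 10 reads.

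To find cells that hold several of them, 6 of the genes were used as identity genes: Gata3, Rora, Il7r, Il1rl1, Nmur1 and Icos. In the 390 cells without a Cd3e read, the number of identity genes per cell fell and then rose again. There were 50 cells with 1 and 9 cells with 2, but only 1 cell with 3, and then 6 cells with 4, 13 with 5 and 7 with all 6. Among the cells with Cd3e, the counts fell without a second rise, from 34 cells with 1 to 33 with 2, 12 with 3 and 5 with 4, and no cell had more.

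**Figure D1:**
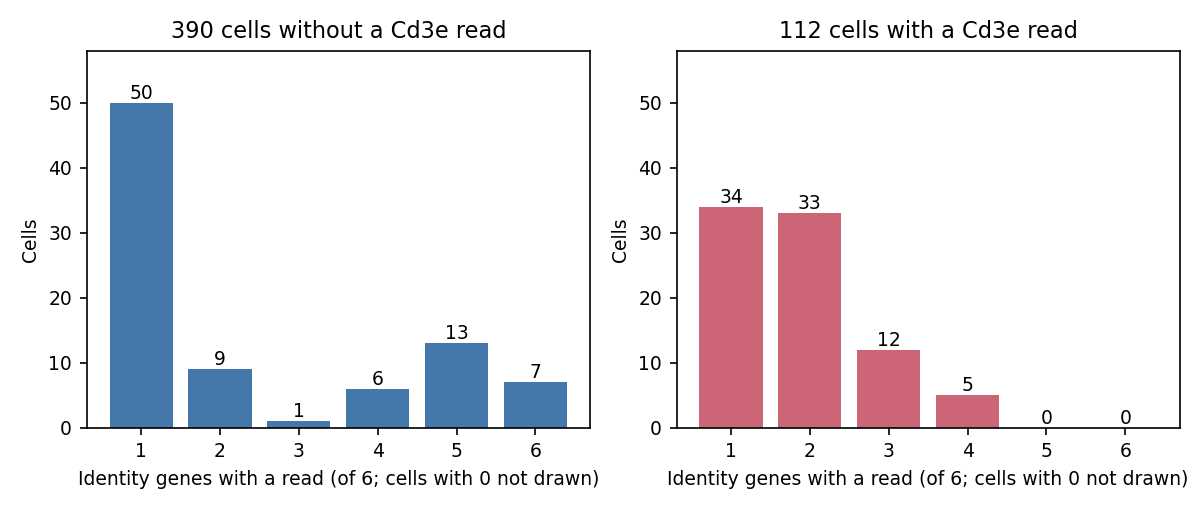
Number of cells (y axis) by the number of the 6 identity genes with a read (x axis), for the 390 cells without a Cd3e read (left) and the cells with one (right). The left panel dips to 1 cell at 3 genes and rises to 13 cells at 5, while the right panel ends at 5 cells with 4 genes.

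Cells with no Cd3e read and at least 3 identity genes are called gated cells. There were 27, or 5.38% of all cells (exact 95% interval 3.57% to 7.73%). The interval covers error from the number of cells counted only, and not the spread between animals or pools. Gated cells had a median depth of 651403 counts, close to the 708409.5 of cells with Cd3e, and a median of 2222 genes against 1839. They had a median of 6 of the 10 genes per cell, and the most was 9. Over all cells, 25 had at least 5 of the genes, of which 1 had Cd3e, and none of the 22 cells with 6 or more had Cd3e.

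Just inside the gate, the single cell with 3 identity genes came from 6 h. It had 94 reads of Rora, 4 of Il1rl1 and 1 of Icos, no Gata3 and no Stab2, but 2564 reads of Nkg7, a granule gene of NK cells and cytotoxic T cells, and 5668 genes, the most of any gated cell. A minimum of 4 genes left it out and kept the other 26. Just outside, 1 of the 9 cells with 2 identity genes, from day 4 in pool B, had 763 reads of Gata3, 63 of Nmur1, 723 of Stab2 and 597 of Il17rb, a subunit of the IL-25 receptor, from 203117 counts.

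Gated cells were found at every time, in 4 fresh cells (2.56%), 3 of 76 after 6 h (3.95%), 8 of 75 on day 1 (10.7%), 4 of 78 on day 2 (5.13%), 6 of 82 on day 3 (7.32%) and 2 of 35 on day 4 (5.71%). The exact intervals of fresh cells (0.703% to 6.43%) and day 1 (4.72% to 19.9%) overlapped. Within pool B the share was 4.94% in fresh cells, 10.7% on day 1, 7.32% on day 3 and 10.5% on day 4, and all 4 intervals overlapped. Within pool A none of the 75 fresh cells was gated, which allows up to 4.00%, against 3.95% after 6 h and 5.13% on day 2. Pool B as a whole had 20 gated cells (7.78% of its cells) and pool A had 7 (3.03%), so that pool and preservation time cannot be told apart in the pooled shares. Cells with Cd3e were 55.6% of the fresh cells in pool B and 13.3% of those in pool A.

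**Figure D2:**
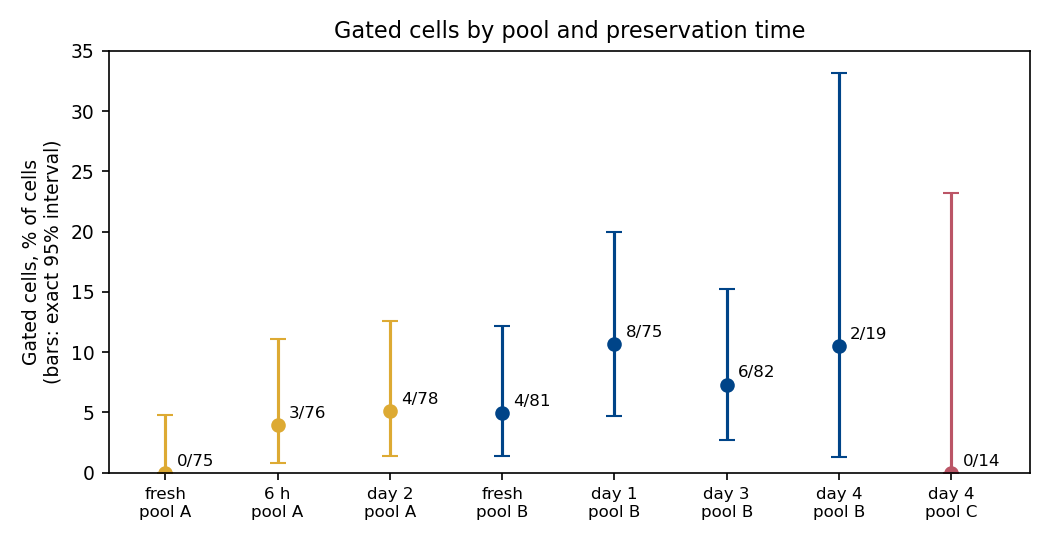
Gated cells as a percentage of the cells sequenced (y axis), for each preservation time within each library pool (x axis; the 2 day 4 cells of pool A are not drawn), with exact 95% intervals of counting error. The points of pool B lie between 4.94% and 10.7% with overlapping bars, and those of pool A between 0 and 5.13%.

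In the gated cells, Gata3 was read in 26 of 27, at a median of 1501 rpm where read, against 304 rpm in the 46 cells with both Gata3 and Cd3e. By time, the median over gated cells was 1800 rpm fresh, 1070 rpm after 6 h, 1055 rpm on day 1, 2524 rpm on day 2, 1249 rpm on day 3 and 2027 rpm on day 4. The fresh cells, at 401 to 1889 rpm, overlapped every later time but day 4, whose 2 cells had 1930 and 2124 rpm. Rora was read in 24 of 27 gated cells, at a median of 767 rpm where read. Its medians by time were 1232 rpm fresh, 83.9 rpm after 6 h, 732 rpm on day 1, 398 rpm on day 2, 796 rpm on day 3 and 823 rpm on day 4, and the lowest rested on 3 cells. Both factors chose these cells, so their levels are a description.

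Among the receptors, Il7r was read in 22 gated cells, Icos in 23, Nmur1 in 21 and Il1rl1 in 18. Il7r stood at 1395 to 6072 rpm in the 4 fresh gated cells, with a median of 3361 rpm, and at 0 to 3872 rpm in the 8 cells of day 1 from the same pool, with a median of 377 rpm. On day 3 it was 0 to 1403 rpm, with a median of 233.2 rpm, and the 2 cells of day 4 had 637 and 742 rpm. The fresh cells were thus the highest at the median, while their range overlapped those of day 1 and day 3 and lay above both cells of day 4. Nmur1 was read in all 4 fresh cells, with a median of 1272 rpm, in 2 of 3 after 6 h, 5 of 8 on day 1, 4 of 4 on day 2, 4 of 6 on day 3 and 2 of 2 on day 4. It reached 2936 rpm, and all 21 gated cells that held it had at least 10 reads. Icos had medians of 652 rpm fresh, 0.892 rpm after 6 h, 1399 rpm on day 1, 247.6 rpm on day 2, 546 rpm on day 3 and 740.4 rpm on day 4. After 6 h it was near 1 read in 2 of the 3 cells. Il1rl1 ranged widely, at 0.9 to 3150 rpm where read, and 14 of its 18 gated cells had at least 10 reads.

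Stab2 was not used to choose the cells, but it was put among the 10 genes with results of these cells known. It was read in 24 of the 27 gated cells, and each of the 24 had at least 10 reads. Its median where read was 3052 rpm, with a range of 325 to 6737 rpm. Among other cells it was read in 3 cells with Cd3e (2.68% of these), 1 of 78 with Cd79a and Cd79b (the B cell receptor pair), 1 with C1qa and C1qb (0.806%) and 3 of the rest (1.86%). The B cell had 2 reads and the C1q cell 1. With a minimum of 10 reads, 26 cells held Stab2, of which 24 were gated. Of the other 2, 1 was the day 4 cell just outside the gate. The last was a day 4 cell of pool C with 694 reads of Cd3e and 548 of Cd3g but none of Cd3d or Trac, which had 2580 reads of Stab2, 725 of Gata3, 614 of Nmur1 and 627 of Il17rb.

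By time, the median Stab2 level of gated cells was 3052 rpm fresh, 325 rpm after 6 h, 3659 rpm on day 1, 2834 rpm on day 2, 2390 rpm on day 3 and 5155 rpm on day 4. Only 2 of 3 gated cells after 6 h and 4 of 6 on day 3 had it, and the range of every later time overlapped that of fresh cells, 1011 to 4091 rpm. The 2 cells of day 4 had 3572 and 6737 rpm, the first within that range and the second above it. The 3 gated cells without Stab2 were the 6 h cell with 3 identity genes and 2 cells of day 3, which had no Nmur1 either.

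Sinusoidal and other endothelial cells were looked for in the same gated cells, because Stab2 is known from there. Of 7 endothelial markers, Cdh5, Kdr, Emcn, Flt1 and Tek had no read in any gated cell (0 of 27 cells, which allows up to 11.1%), Pecam1 was read in 1 and Eng in 5. The summed level of the list was 0 to 1058 rpm in gated cells and 0 to 2020 rpm in cells with Cd3e. Ptprc, which encodes the sorted antigen Cd45, was read in 26 of the 27.

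Stab2 and Nmur1 were read in nearly the same cells: 24 of the 25 Nmur1 cells held Stab2, and 21 of these 24 were gated. Across all 502 cells the Pearson correlation of their log2(rpm + 1) was 0.93, and it was 0.91 in pool B and 0.99 in pool A. Over the 27 gated cells alone it was 0.66. The value over all cells rests on both genes being at 0 in most cells, and by the study's methods the cells of a time came from the kidneys of the same mouse.

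**Figure D3:**
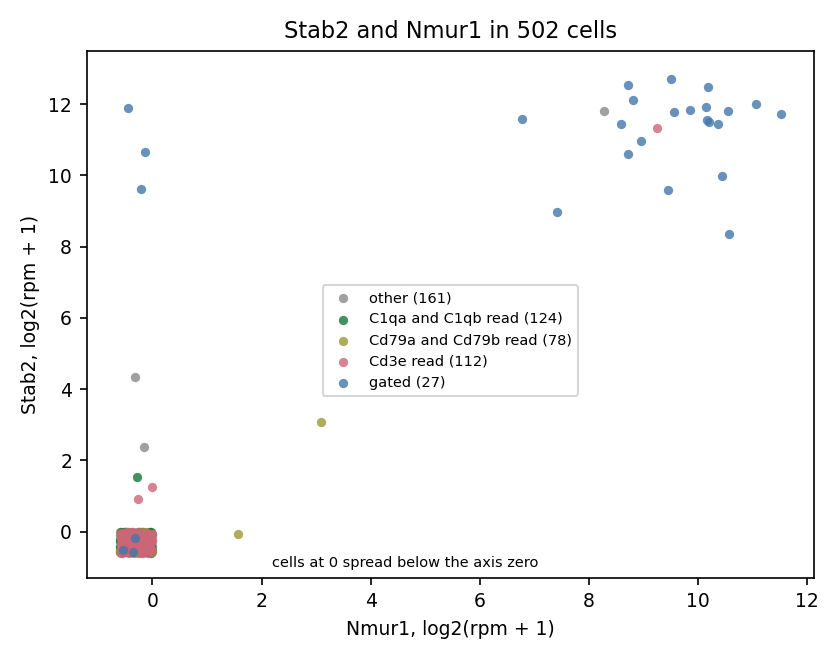
Level of Stab2 (y axis) against Nmur1 (x axis), both as log2(rpm + 1), in each of the 502 cells, with colour for the class of the cell and cells at 0 spread just below the zero of each axis. 21 gated cells lie at the upper right with 1 cell with Cd3e and 1 of the other cells, and 3 gated cells have Stab2 alone.

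The effector genes were read almost only in gated cells. Areg was read in 7 gated cells and in 1 other cell, a fresh cell without Cd3e but with 680 reads of Cd3g and 1094 of Trac. Its level in gated cells was low in most, with a median of 9.09 rpm where read, and 3 of the 7 had at least 10 reads. Il5 was read in 6 cells, all gated, at 1.6 to 717 rpm with a median of 367 rpm, and 5 had at least 10 reads. All 6 also held Gata3, Rora, Nmur1 and Stab2, and 3 of them held Areg. Il13 was read in 1 gated cell of day 4 with 28 reads.

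By time, Il5 was read in 3 cells on day 1, 2 on day 3 and 1 on day 4, and in none of the fresh, 6 h or day 2 cells. Areg was read in 2 fresh cells, 3 of day 1 and 3 of day 3. All cells with Areg, Il5 or Il13 came from pool B. None of the 7 gated cells of pool A had any of them, and the difference between the pools was not tested. Among the 4 fresh gated cells 1 had Areg and none had Il5.

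**Figure D4:**
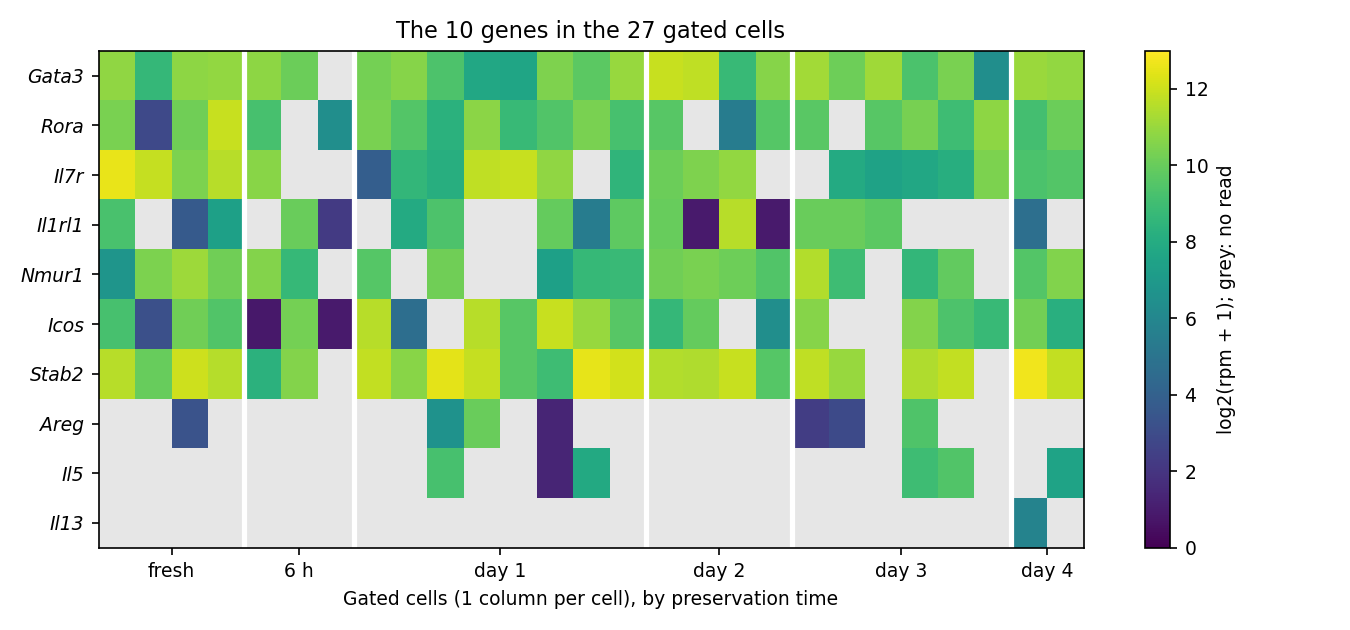
Level of the 10 genes (rows) in each of the 27 gated cells (columns, by preservation time), as log2(rpm + 1), with grey for no read. Gata3 fills 26 columns and Stab2 24, while Areg, Il5 and Il13 fill 7, 6 and 1.

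Levels can be compared between genes only per length. Per kilobase of merged exons, the mean over gated cells was highest for Nmur1, 459 RPKM (rpm per kilobase), followed by Gata3 at 355, Stab2 at 304, Il7r at 272 and Icos at 264.1 RPKM. Rora at 63.8, Il1rl1 at 63.1, Areg at 56.6, Il5 at 54.1 and Il13 at 1.72 RPKM were lower. The medians ran in a like order for the first 3, at 413, 357 and 331 RPKM, and were 0 for Areg, Il5 and Il13. In cells with Cd3e the means were 80.8 RPKM for Il7r, 62.4 for Icos and 41.6 for Gata3, and at most 7.23 for the other 7 genes. Counting ignored the strand, and Il5 shares 417 bases of its exons, 27.1% of their length, with the antisense gene Gm12214, so that reads there cannot be assigned; Gm12214 itself had no count.

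To test what else set gated cells apart, counts were summed over gated cells and over cells with Cd3e at each of the 6 times and compared with edgeR's quasi-likelihood test, with time as a block. The identity genes and Cd3e chose the cells and were not tested. Of 10552 genes, 72 passed an adjusted p of 0.05 (0.682% of the genes tested), 18 higher in gated cells (0.171%) and 54 lower (0.512%), and the median log2 fold change of all genes was -1.68, so that lower calls are read against that shift. Over the 995 genes with a count in every sum the median was -0.50, so that much of the shift lay in genes with zeros. Genes read mainly in one class passed the filter through that class. With DESeq2 1662 genes passed, of which 1446 were lower, so that 13% of the calls were higher in gated cells in place of 25%. Sums of 2 to 8 gated cells give many zeros, and the prior degrees of freedom of the fit were infinite, so the size of a small p is carried by the model over all genes and not by 6 times. Both gated cells of day 4 came from pool B and the 3 cells with Cd3e from pool C, and 10 of the 55 fresh cells with Cd3e came from pool A while the fresh gated cells were all from pool B, so that class and pool cannot be told apart on day 4 and only in part in fresh cells.

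Of the 4 genes that did not choose the cells, 3 passed the filter on low counts, and the filter kept them only because gated cells hold them. Their levels in the sums are therefore given as a description, with no test read from them. The Stab2 level in gated sums, in counts per 1000000 (CPM), was 2744 fresh, 439.6 after 6 h, 4236 on day 1, 1776 on day 2, 2475 on day 3 and 3855 on day 4. In the sums of cells with Cd3e it was 0.04 fresh and 0.07 on day 2, from 1 read each, 0 after 6 h and on days 1 and 3, and 681 on day 4, all of the last from the single cell of pool C. Gated cells were higher at each of the 6 times, while over all times the ranges overlapped, since the gated sum of 6 h lay under the Cd3e sum of day 4. With a sum of 0 set to 3 counts, the difference was 2418-fold after 6 h, 5617-fold on day 1 and 2993-fold on day 3. These values are no lower limits, since reads are amplified and vary widely from cell to cell. On day 4 the difference was 5.66-fold. The Cd3e sum of day 4 without the cell of pool C has no Stab2 read. Stab2 was also taken up with results of these cells known.

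Areg and Il5 were each higher in gated sums at 3 of 6 times and at 0 in both classes at the other 3. Areg stood at 2.51 CPM fresh, 156.7 on day 1 and 151.1 on day 3 in gated sums, and at 0 in every sum of cells with Cd3e. Il5 stood at 140.6 CPM on day 1, 267.2 on day 3 and 61.9 on day 4, and likewise at 0 in cells with Cd3e. Il13 was below the filter.

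Other genes of the lineage were read from a list of 34 genes, of which 28 passed the filter. In the test 3 were higher in gated cells, 2 lower and 23 did not pass, and the median log2 fold change was 1.66, against -1.68 over all genes and -0.50 over those with a count in every sum. With limma none of the list passed, beside 6 of all genes. With DESeq2 7 were higher and 3 lower, beside 1662 of all 10552 genes called, 1446 of them lower. Cxcr6, a chemokine receptor of tissue lymphocytes, was higher at 4 of 6 times (log2 fold change 1.87, SE 0.40, adjusted p = 0.000863 by edgeR), with 533 to 5392 CPM in gated sums against 185.8 to 3720.5 CPM. Cysltr1, a receptor for cysteinyl leukotrienes, was read in 11 gated cells and in 3 with Cd3e and was at 0 to 861 CPM in gated sums against 0 to 12.6 CPM. Of the 3 genes higher, 2, Cysltr1 among them, were read in under 5 cells with Cd3e and entered the test through gated cells, so no test is read from them. Cd69, an activation and residency marker, was lower in gated cells at 6 of 6 times (log2 fold change -6.23, SE 1.08, adjusted p = 3.10e-06 by edgeR). Tcf7, a factor of lymphoid progenitors and naive T cells and the other gene lower, was read in 2 gated cells and in 76 with Cd3e and was at 0 to 47.3 CPM in gated sums against 0 to 1061 CPM. It entered the test through the cells with Cd3e, so no test is read from it either. These calls were lost under 11 of 20 alternatives for Cxcr6 (among them DESeq2, and leaving out fresh cells, day 3 or day 4, where the log2 fold change was 1.63, 1.62 and 1.41) and 8 of 20 for Cd69 (among them leaving out day 4), each with its direction kept.

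The genes of the list that did not pass ranged from none to all 27 of the gated cells. Id2, the inhibitor of E proteins that all innate lymphoid cells need, was read in all 27 gated cells and in 49 with Cd3e, 43.8% of these (log2 fold change 1.28, SE 0.48, adjusted p = 0.346 by edgeR). Il17rb was read in 20 gated cells and in 5 with Cd3e, and Il2ra, the high affinity IL-2 receptor chain, in 20 and 8. Ramp1, a receptor partner for the neuropeptide CGRP, was read in 23 and 36. Calca, which encodes CGRP, was read in 8 gated cells, all with Stab2, and in no other cell of the series. Thy1, a surface marker of lymphocytes, was read in 8 gated cells and in 65 with Cd3e. Klrg1, a marker of mature cells of this lineage, was read in 4, Il4 in 1, and Ptgdr2, Il9 and Il6 in none, which allows up to 11.1% of gated cells each.

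Of the 10 genes, 3 had their highest median over gated cells in fresh cells (Il7r, Rora and Nmur1), and Gata3 and Il1rl1 had it on day 2, Icos on day 1, Areg on day 3 and Stab2, Il5 and Il13 on day 4. None of these differences was tested. For Il17rb, over gated cells of pool B the median was 1518 rpm fresh, 28.5 rpm on day 1, 38.5 rpm on day 3 and 42.02 rpm on day 4. The ranges, 36.4 to 4320 rpm fresh and 0 to 770 rpm on day 1, overlapped. Cxcr6 had medians of 4100 rpm fresh, 1088 rpm on day 1, 4071 rpm on day 3 and 2606 rpm on day 4.

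**Figure D5:**
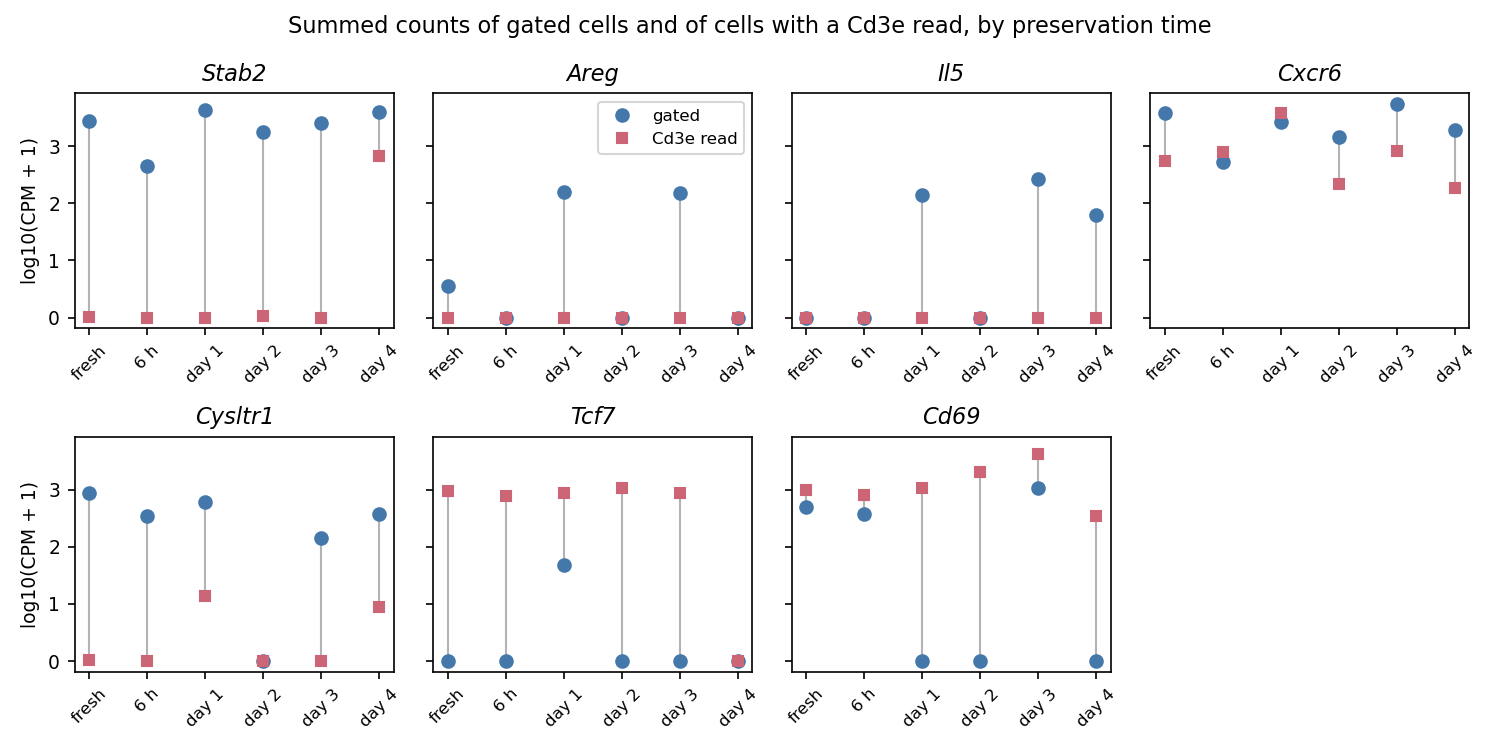
Level as log10(CPM + 1), summed over gated cells (circles) and over cells with a Cd3e read (squares) at each preservation time, for the 3 tested genes of the 10 and 4 other lineage genes. Stab2 circles lie above the squares at all 6 times, Areg and Il5 at 3, Cysltr1 at 5 and Cxcr6 at 4, and the circles lie below for Tcf7 at 5 times and for Cd69 at all 6.

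Of 10 genes of the signalling chain behind the receptors (among them Il1rap and Myd88 of the IL-33 receptor, Il2rg, Jak1 and Jak3 of the IL-7 receptor, and Gnaq behind Nmur1) 0 passed in edgeR. In it, 1 had an unadjusted p under 0.05, beside 9.56% of all genes. In DESeq2 4 passed (1 higher, 3 lower), beside 1662 of all 10552 genes, 1446 of them lower. The median log2 fold change was -4.72 in edgeR, against -1.68 over all genes. Il2rg, the common cytokine receptor chain, was read in 26 gated cells at 969 to 1542 CPM and in cells with Cd3e at 707 to 1289 CPM. Of 9 ligand genes, Il33, Il25, Nmu and Tnfsf15 were read in none of the 502 cells, which allows up to 0.598% of cells each, and Tslp and Il7 in 1 each. Icosl, the ligand of Icos, was read in 8 gated cells and in 3 with Cd3e.

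Most T cell genes were lower, given as a description, since a Cd3e read defined the classes. Of 16 in the test, edgeR called 10 lower in gated cells, beside 0.512% of all genes tested, and 6 did not pass. DESeq2 called 12 lower, beside 1446 of 10552 genes, and limma 4, beside 5. Some of the 16, such as Cd3d and Trac, entered the test through the cells with Cd3e, so no test is read from these calls. The call was lost under 14 of 20 alternatives for Cd3g, 6 for Cd4 and 5 for Cd247, and under 1 for Cd3d and for Trac. Cd3d was read in none of the gated cells and in 97 with Cd3e (86.6%), and Trac, the constant gene of the alpha chain, in 1 (1 read) and 97. Not all receptor genes were missing: Trbc2, a beta chain constant gene, was read in 17 gated cells at a median of 167.7 rpm, against 683 rpm in 110 cells with Cd3e, and Cd3g in 6 at a median of 412 rpm against 999 rpm in 94. Trbc2 and Trbc1 did not pass (log2 fold change -2.45 and -2.68, adjusted p of 0.39 and 0.62 by edgeR). Trbc1 and Trbc2 are near copies, so reads between them are uncertain. A gate without Cd3d and Cd3g reads as well kept 21 cells, 18 of them with Stab2. Cd3e defined the classes, so the T cell genes, its partners among them, are no independent measure.

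Markers of other cells were few. The 4 neutrophil markers had no read in gated cells, and of the 4 B cell markers Cd79b alone was read, in 3 cells. Of 6 macrophage markers 5 were read, in 5 cells at a summed level of at most 92.6 rpm, against a median of 16533 rpm in cells with C1qa and C1qb. The 10 NK and group 1 markers were read in 5 gated cells, with a median summed level of 0; 8 of them were read in 1 gated cell each, and the highest summed level, 9963 rpm, was that of the 6 h cell with 3 identity genes. Of 6 epithelial markers 2 were read, in 3 gated cells at up to 11.97 rpm. Cpa3, a mast cell protease, was read in 5 gated cells at up to 2026 rpm and in no other cell, while Mcpt8, Fcer1a, Ms4a2 and Gata2 had no read in the series. The part of these genes in the results was not tested.

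By the size of the fitted fold change, given as a description, Stab2, Mmp16 (a membrane matrix metalloproteinase), Serpina3g (a protease inhibitor) and Rnf128 (an E3 ubiquitin ligase) were among the 5 highest, and the 5 lowest were Ccr7 (the lymph node homing receptor), Cd3d, Cd6 (a T cell surface receptor), Gramd3 and Tdrp, the last of which lost its call under 15 of 20 alternatives. Mmp16 was read in 13 gated cells, at 262.1 to 737 CPM at 5 times and 0 on day 4, and in no cell with Cd3e. Rnf128 was read in 15 gated cells and in 2 with Cd3e. Ccr7 was read in 76 cells with Cd3e and in no gated cell.

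The genes most like the mean of the 10 over all 502 cells, by Pearson correlation of log2(rpm + 1) among 12429 other genes read in at least 10 cells, were Cxcr6 (0.74), Il17rb (0.71), Ptpn13 (0.67), Skap1 (0.62), Rnf128 (0.60), Npnt (0.59), Tuba8 (0.58), Il2ra (0.58), St6galnac3 (0.58) and Xlr4a (0.58). Npnt was read in 13 gated cells of its 14 cells in all, and Tuba8 in 13 of 15. Skap1, a T cell adaptor, was read in 25 gated cells but also in 85 with Cd3e. By gene, Gata3, Il1rl1 and Nmur1 were each most like Stab2 (0.62, 0.50 and 0.93), Rora and Icos most like Cxcr6 (0.66 and 0.61), Il7r most like Skap1 (0.56) and Areg most like Il5 (0.40). Il13 rests on 1 cell and has no neighbours to name.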

How the data were processed

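Full-length cDNA was made from single sorted cells with a protocol adapted from SmartSeq2, without molecular identifiers, and libraries were made with Nextera XT. The authors cut reads to 75 bp, discarded duplicates by picard, mapped to GRCm38 with STAR and counted them with HTSeq (intersection-strict, strand ignored); the deposited values are raw read counts per gene and cell. The submitters' processing notes name STAR, HTSeq and GRCm38; for versions, the sources used here give none. Of 46700 rows, 97 were ERCC or vector rows without a gene (0.140% of counts), kept out of totals and tests.

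A gene counted as read in a cell with at least 1 read. Levels are rpm on the total of gene counts. The genes of interest and the gene lists were chosen with earlier results of these data known, and the study had already described marker genes on these samples, so their direction is no independent evidence. Genes named are the 10 and Cd3e, those of the lists, the 10 most like their mean and the 3 most like each, and the 5 highest and 5 lowest fold changes past the threshold; some genes of these sets are not reported here.

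Counts were summed per preservation time and class and tested with edgeR 4.0.16 (TMM, quasi-likelihood, time as block, genes read in at least 5 cells, Benjamini-Hochberg over all genes tested, threshold 0.05). The 12 sums hold 892774 to 30510335 counts. With infinite prior degrees of freedom, the p-values rest on a spread modelled over all genes and not on that of each gene between times. Fresh cells and day 4 cells came from more than 1 pool, so a time need not be 1 preparation. Days 3 and 4 may share a mouse. In simulated data for this comparison (10559 genes), the changed genes were drawn only from those with the highest levels. Of 50 genes each, 44% were called at a log2 difference of 8, 96% at 12, none at 4 and 12% at -8. Of 10359 unchanged genes, 13 were called. The shares of changed genes called do not cover genes with lower levels. Alternatives used DESeq2 1.42.0, limma 3.58.1 on log2(CPM + 1), other filters, gates and thinning to 100000 or 200000 counts (8 and 26 cells left out). Gene lengths and positions come from GENCODE (GRCm38). Cells were not treated as replicates, and doublets were not called.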

Additional observations from a re-analysis of the deposited data

Results flagged for a closer look

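Over the 6 preservation times, 29 sets of values were examined for 1 time that stood apart from the others by Dixon's criterion at 95%, and 5 did so. The criterion's rate of about 1 of 20 sets holds for independent, normally spread values. A set at 0 at all times but 1 is always flagged, so the rate does not apply to such sets. Il13 was read at day 4 only, in 2.86% of cells, which is 1 cell. The summed level of Il7r in gated cells was 3299.5 CPM in fresh cells, above 495 to 1112 CPM at the other times. In cells with Cd3e, Il1rl1 stood at 21.1 CPM in fresh cells against 0 to 2.48 CPM elsewhere, Nmur1 at 162.04 CPM at day 4 and 0 elsewhere, and Stab2 at 681 CPM at day 4 against at most 0.07 CPM elsewhere. The values of Nmur1 and Stab2 at day 4 both come from the 1 cell of pool C described with the Stab2 cells.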

How the results depend on the processing

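No paired analysis by replicate number was possible because the labels give cells no shared replicate numbers; time was the block. The 7 genes read at every time stayed 7 under all 4 other settings of reads, thinning and total, and 24 cells held at least 5 of the genes at a minimum of 10 reads. Gated cells stayed within the interval of 5.38% for 5 of 6 gates, from 4.18% to 7.17%; leaving out cells with B or C1q genes gave 9.09% through its smaller denominator, and, chosen after seeing the data, pools B and A alone gave 7.78% and 3.03%. With at least 10 reads, 92.3% of Stab2 cells were gated in place of 75%.

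The 72 genes called, 54 of them lower in gated cells, became 1662 and 1446 with DESeq2 (which gave no adjusted p for 1638 genes), 38 and 29 with genes read in at least 10 cells, and 20 and 18 without the block. Without 1 time they ranged from 38 to 65 and from 32 to 53. The lowest, 38 and 32, came without fresh cells, 47 and 34 came without 6 h, and the 18 genes higher in gated cells became 6 without fresh cells, 11 without day 3 and 7 with a gate free of Cd3d and Cd3g. Among alternatives chosen after seeing the data, pool B alone gave 28 and 18, pool A alone 0 and 0 in edgeR (1.55% of its genes at an unadjusted p under 0.05; no other tool was run on it), cells with both Cd3e and Gata3 as comparator 38 and 27, edgeR's newer dispersion estimate 35 lower, and limma 6 and 5.

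The fitted log2 fold change of Stab2, which entered the test through gated cells and is no evidence of its direction, was 14.41, 4.51 without the block, 14.79 in pool A alone, 14.41 with the robust prior and 13.90 to 15.41 without 1 time; in edgeR the adjusted p was over 0.05 in the first 3 of these alternatives (0.25, 0.594 and 0.297). Of the 10 genes most like the mean, 2 were shared with a Spearman ranking, 7 with linear rpm, 5 within pool A and 7 within pool B. The causes were not tested.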
